A study of Hordeum vulgare with 28 samples.

Results

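Leaves of barley (*Hordeum vulgare*, cultivar Morex) that had been infested with spider mites for 2 h were compared directly with leaves that had been wounded mechanically 2 h earlier. Of the 28 RNA-seq samples of the study, in 7 groups of 4, 12 entered the comparison by their labels. They were 4 samples infested with *Oligonychus pratensis* (O2), a mite specialized on grasses, 4 infested with *Tetranychus urticae* (T2), a mite that feeds on many plant families, and 4 wounded samples (W2). The 8 mite samples were set against the 4 wounded ones across all genes. The 4 undamaged control samples (C) are given as background.

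All plants were 30 days old and leaf number 5 was used. Every leaf, those of C included, carried wax barriers around the section that was sampled. In O2 and T2 the section held 400 adult females, and in W2 both faces of the blade had been damaged once with 60 grit sandpaper. The wounding was a single, immediate event. Released mites, by the study's methods, need from minutes to hours to spread out and begin to feed, so the time since damage began was shorter than with sandpaper and was not fixed. Each library came from a separate leaf section. No measure of the tissue damaged in each library was used here, so the agent of damage, its extent and the time since it began cannot be told apart.

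Spider mites pierce single mesophyll cells with their stylets and suck out the contents. Mite feeding and mechanical wounding are both known to start the synthesis of jasmonates, lipid hormones made from membrane fatty acids of the chloroplast. In the nucleus, jasmonate brings about the breakdown of JAZ repressors, and the freed transcription factors switch on defence genes together with new JAZ genes that restrain the response. Wounded leaves are also known to turn down genes of photosynthesis. Proteins bound for the cell wall or the leaf apoplast are folded in the endoplasmic reticulum and carried in coated vesicles through the Golgi.

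The deposited values were counts of reads per gene. Totals were 11.7 to 18.9 M counts (M, mega) in the 8 mite samples, 23 to 38.3 M in W2 and 22.8 to 35.2 M in C. The means were 15.5 M ± 2.75 (SD, n = 8) for mites and 28.2 M ± 6.95 (SD, n = 4) for W2, and these groups did not overlap (exact two-sided permutation test, *P* = 0.00202, which is the lowest that the possible assignments can give, 0.00303 adjusted over 3 measures). Wounded libraries were also spread more evenly over genes. The 10 genes with most counts in C took 11.9% ± 0.787 of the counts in mite samples (10.96 to 13.26%), 6.91% ± 0.837 in W2 (5.769 to 7.657%) and 12.3% ± 1.36 in C (exact permutation test of mites against W2, *P* = 0.00202, adjusted 0.00303). Genes encoded by the plastid took 0.685% ± 0.0819 in mite samples and 0.768% ± 0.272 in W2 (*P* = 0.455, exact permutation test). Leaf identity was clear in all 12 libraries, in which LHCB3 (MLOC_17002), a light-harvesting protein of mesophyll chloroplasts, had 976.8 to 4137 CPM (counts scaled to 1 M counts in the library).

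Genes were named through the study's list of barley genes paired with *Arabidopsis thaliana* genes by reciprocal protein searches, of which 1998 pairs were used. Roles given below are those known in *A. thaliana*, and a pairing by sequence does not show that the barley gene has the same role. For each of the 15 lists below, DESeq2 called as many genes in each direction as edgeR did.

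Differences between mite-infested and wounded leaves were widespread at 2 h. Of 16948 genes tested, 4560 (26.9%) were called, meaning an adjusted *P* under 0.01 in edgeR's quasi-likelihood test with Benjamini-Hochberg adjustment and an absolute log2 fold change over 1. Of these, 1665 genes (9.82% of those tested) were higher in mite-infested than in wounded leaves and 2895 (17.1%) were lower. The median log2 fold change was 1.34 for the genes called higher and -1.75 for those called lower. Large differences were nearly all on the side of wounding, since 299 genes were lower in mite-infested leaves by more than 4 on the log2 scale and 7 were higher by that much. Across all tested genes the 8 mite samples lay wholly above the 4 wounded samples in CPM for 22% and wholly below for 24.9%. Among the calls these shares were 85.2% of the higher and 90.7% of the lower genes.

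The direction of the calls shifted with upper-quartile scaling of the libraries. With TMM factors, 63.5% of calls were lower in mite-infested leaves, with library size alone 60.6% and with DESeq2 64.2%. With upper-quartile factors this share was 48.6%. The median over the 16948 genes was then 0.20 on the log2 scale, against 0.01 with TMM factors.

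**Figure D1:**
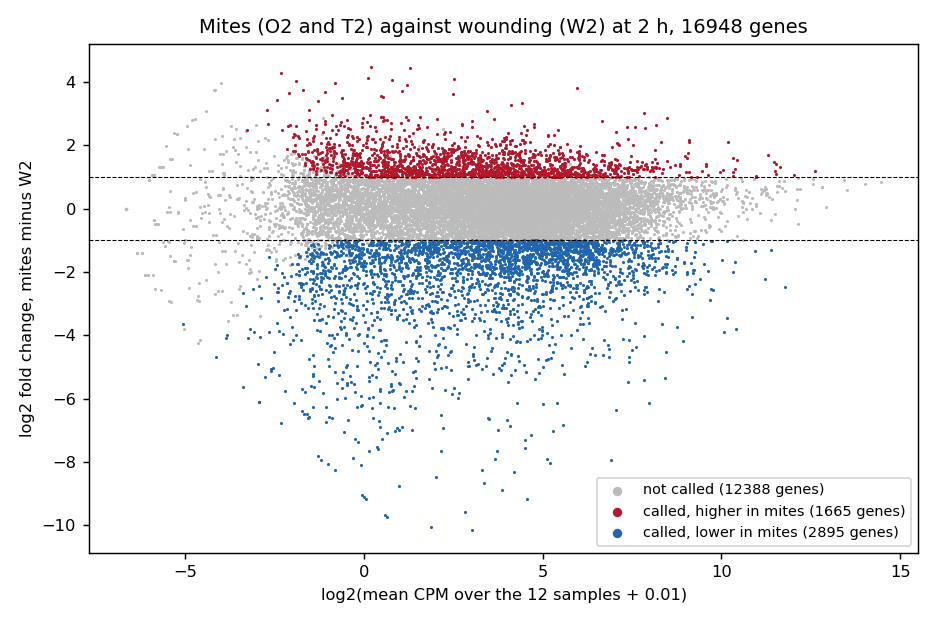
Log2 fold change between mite-infested (O2 and T2) and wounded (W2) leaves at 2 h plotted against mean expression, as log2 of the mean CPM over the 12 samples plus 0.01, with each gene as 1 point. The 2895 genes called lower in mites (blue) reach far below the dashed line at a log2 fold change of -1, while the 1665 called higher (red) mostly lie within 2 log2 units of 0.

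Genes that differed between mites and wounding were mostly genes that wounding had moved away from the control level while mite feeding had not. For the genes called lower in mite-infested leaves, the median log2 fold change against C was 1.94 in W2 and 0.12 in the mite samples. For the genes called higher it was -1.46 in W2 and -0.12 in the mite samples. These values share the C libraries, and are given side by side without a test. By the rule of calling, mites and W2 had to differ by more than 1 in each of these genes. A gap between their medians was thus set beforehand, while which of them lay nearer to C was not. The upper tail differed between the sets. Among genes called lower, the 95th percentile against C was 2.61 in mite samples and 6.90 in W2, so a minority stood well above C after mite feeding too. Among genes called higher, it was 0.84 in mite samples and -0.60 in W2.

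**Figure D2:**
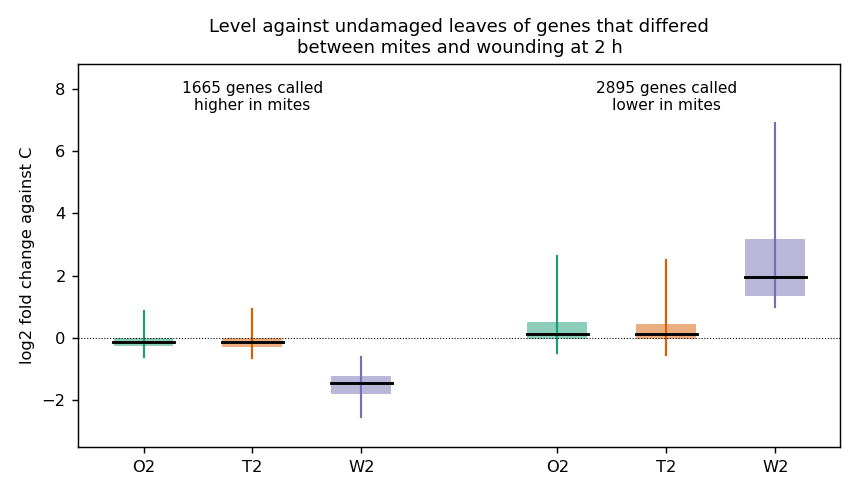
Log2 fold changes against undamaged leaves (C) in O2, T2 and W2, for genes called higher (left) or lower (right) in mites than in W2. Black bars are medians, boxes span the middle 50 percent of genes and lines run from the 5th to the 95th percentile. O2 and T2 sit near 0 in both sets, with medians between -0.12 and 0.14, and W2 has medians of -1.46 and 1.94.

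The 2 mites were pooled, so their own difference was examined. edgeR called 0 genes between O2 and T2, with 517 at an unadjusted *P* under 0.05, and DESeq2 called 1 (537 at an unadjusted *P* under 0.05). That gene, MLOC_36529, was named after its values were seen. It had 2.84 to 7.50 CPM in O2, 1.32 to 2.64 CPM in T2 and 1.26 to 3.05 CPM in W2, and a log2 fold change of O2 over T2 of 1.44 in DESeq2 (SE 0.28, adjusted *P* = 0.00471) and 1.45 in edgeR (adjusted *P* = 0.246). Over the 4560 genes called between mites and wounding, the median absolute difference between O2 and T2 was 0.13, against 1.55 between mites and W2. By the rule of calling, the latter difference had to exceed 1 in each of these genes, so the medians are not a like comparison. The typical spread among replicates, as the median SD of log2 CPM over genes, was 0.199 in O2, 0.197 in T2 and 0.232 in W2.

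Genes of jasmonate synthesis and signalling came first, as the pathway both kinds of damage are known to start. Of 8 paired genes, all tested, 3 (37.5%) were lower in mite-infested leaves, where 17.1% of all genes were, 0 were higher, where 9.82% were, and 5 were not called. At an unadjusted *P* under 0.05, 2 had positive and 4 negative values. Their median log2 fold change was -0.58, against 0.01 over all genes. The calls were of genes that restrain the response, and none was of a listed enzyme. The list was partial, and held no gene of lipoxygenase, allene oxide cyclase or oxophytodienoate reductase. Jasmonate synthesis as a whole was therefore not covered.

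AOS (MLOC_21933), allene oxide synthase, catalyses the committed step towards jasmonate. Its level in W2 was 97.5, 275, 269 and 176 CPM. The mite samples ran from 46.9 to 279 CPM with a median of 139, and C from 0.625 to 3.65 CPM. All 12 damaged leaves thus lay far above every control leaf, while mite-infested and wounded leaves overlapped. The log2 fold change of mites over W2 was -0.63 (SE 0.38, adjusted *P* = 0.139, edgeR), so no difference was called. Against C, the log2 fold change was 6.55 in O2, 6.33 in T2 and 7.07 in W2.

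Enzymes of the peroxisome, where beta-oxidation shortens the jasmonate precursor, differed less. ACX4 (MLOC_14621), an acyl-CoA oxidase, had a log2 fold change of -0.53 (SE 0.067, adjusted *P* = 9.99e-08), and ECH2 (MLOC_12748), an enoyl-CoA hydratase, of 0.52 (SE 0.096, adjusted *P* = 3.09e-05). Both missed the fold change minimum. AIM1 (MLOC_2513), a multifunctional enzyme of beta-oxidation, had a log2 fold change of -0.03 (SE 0.11, adjusted *P* = 0.842). ST2A (MLOC_16007), a sulfotransferase that inactivates hydroxyjasmonates, had 5.72 to 7.61 CPM in mite samples and 3.30 to 4.65 CPM in W2, without overlap, and a log2 fold change of 0.64 (SE 0.13, adjusted *P* = 0.000125).

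The 3 called genes, JAZ1, NINJA and JAM2, are known to restrain the response, and each had its highest group mean in wounded leaves. ST2A, given above and not called, went the other way. JAZ1 (MLOC_12120) had 255, 482, 403 and 365 CPM in W2. It had 73.9 to 265 CPM in mite samples, with a median of 174, and 16.4 to 27.4 CPM in C. Mite-infested leaves were thus above all controls and, but for a single overlapping sample on each side, below the wounded leaves. The log2 fold change was -1.15 (SE 0.19, adjusted *P* = 5.62e-06).

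NINJA (MLOC_31759), the adaptor that links JAZ proteins to a general co-repressor, had 95.2, 127, 115 and 118 CPM in W2, 32.8 to 63.1 CPM in mite samples (median 51.8) and 19.6 to 30.2 CPM in C. The groups did not overlap, and the log2 fold change of mites over W2 was -1.21 (SE 0.13, adjusted *P* = 4.62e-09). JAM2 (MLOC_33189), a bHLH factor that dampens jasmonate responses, had 38.1, 47.0, 33.5 and 43.4 CPM in W2, 17.5 to 21.9 CPM in mite samples (median 19.9) and 16.6 to 21.9 CPM in C. Mite-infested leaves and controls overlapped and all wounded leaves were higher, and the log2 fold change was -1.07 (SE 0.064, adjusted *P* = 5.01e-14). With upper-quartile factors the JAZ1 and JAM2 differences were -0.95 and -0.88, which is below the fold change minimum. JAZ1 (MLOC_12120) also fell short of it with T2 alone, at -0.99, where O2 alone gave -1.31.

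**Figure D3:**
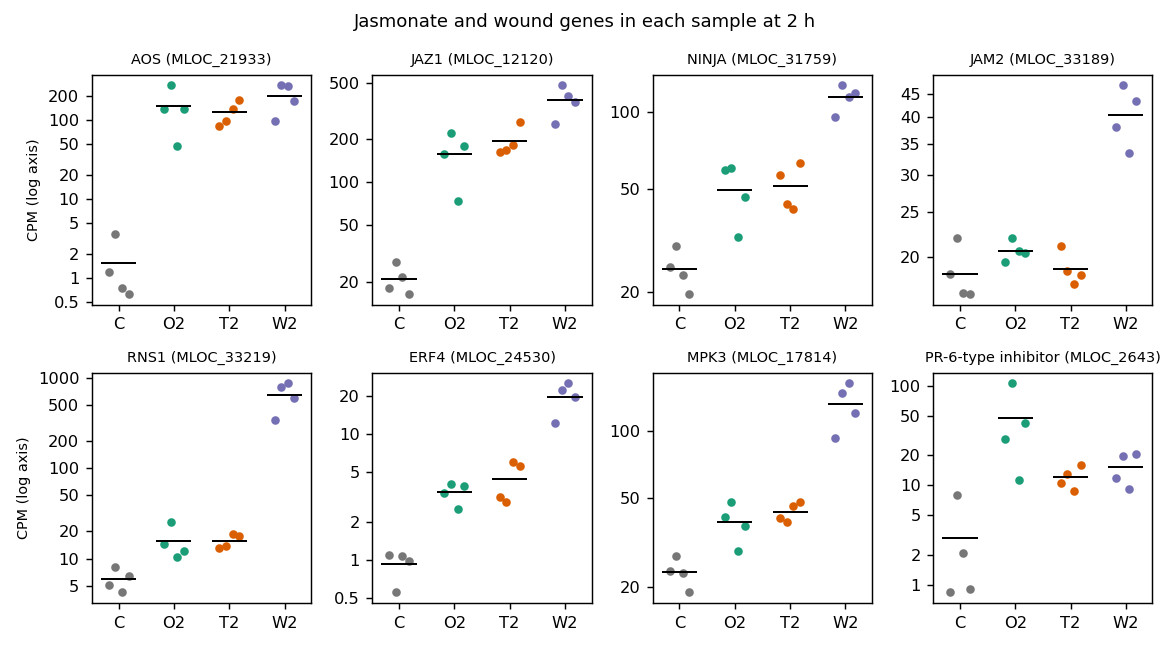
CPM (log axis) of 8 jasmonate and wound genes in each sample of C, O2, T2 and W2, with points for samples and black bars for group means. AOS overlaps between mite-infested and wounded leaves, whereas RNS1 lies between 10.5 and 25.5 CPM in mite samples and between 345 and 868 CPM in W2.

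The list of wound, touch and defence signalling held 12 genes, of which 10 were tested. In mite-infested leaves 4 (40%) were lower, against 17.1% of all genes, and 1 (10%) was higher, near the 9.82% of all genes. The median log2 fold change was -0.75. RNS1 (MLOC_33219), a secreted ribonuclease known to be wound-induced, had 345, 785, 868 and 590 CPM in W2. In mite samples it had 10.5 to 25.5 CPM (median 14.1), and in C 4.23 to 8.00 CPM. Every mite sample was above every control sample by a narrow margin and far below every wounded one. The log2 fold change of mites over W2 was -5.42 (SE 0.25, adjusted *P* = 7.47e-16).

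ERF4 (MLOC_24530), an ethylene response factor that acts as a repressor, had 12.2, 22.2, 25.3 and 19.6 CPM in W2, 2.55 to 5.97 CPM in mite samples (median 3.65) and 0.557 to 1.095 CPM in C, a log2 fold change of -2.39 (SE 0.20, adjusted *P* = 2.97e-11). MPK3 (MLOC_17814), a mitogen-activated protein kinase of wound and immune signalling, had 93.1, 149, 164 and 121 CPM in W2, 29.0 to 48.1 CPM in mite samples (median 41.0) and 18.9 to 27.4 CPM in C (log2 fold change -1.73, SE 0.14, adjusted *P* = 2.45e-11). Both genes were intermediate in mite-infested leaves, above all controls and below all wounded leaves. TCH4 (MLOC_18499), a touch-induced enzyme that loosens xyloglucan in the wall, reached at most 0.197 CPM in a mite sample and 1.44 to 3.26 CPM in W2 (log2 fold change -5.48, SE 0.50, adjusted *P* = 1.08e-09).

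The exception in direction was PMR4 (MLOC_11267), the callose synthase that seals wounds and infection sites. It had 33.1, 24.1, 23.4 and 30.8 CPM in W2, 60.2 to 76.4 CPM in mite samples (median 69.1) and 55.5 to 60.2 CPM in C. Wounded leaves held less of this transcript than any other leaf shown, and the log2 fold change of mites over W2 was 1.29 (SE 0.090, adjusted *P* = 1.07e-12). The serine protease inhibitor of the potato inhibitor I family (MLOC_2643) was not called (log2 fold change 0.60, SE 0.53, adjusted *P* = 0.317). It had 11.2 to 106 CPM in O2, 8.84 to 16.1 CPM in T2, 9.24 to 20.4 CPM in W2 and 0.832 to 7.90 CPM in C, so the damaged groups overlapped.

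Of 18 genes of abscisic acid, ethylene and other hormones, 16 were tested. Lower were 2 (12.5%) and higher 1 (6.25%), both shares below those of all genes (17.1% and 9.82%), and the median was 0.00. ABF3 (MLOC_20326), a bZIP factor of abscisic acid responses, had 10.9, 9.55, 8.09 and 9.10 CPM in W2, 0.459 to 2.303 CPM in mite samples (median 0.923) and 0.580 to 1.27 CPM in C (log2 fold change -3.29, SE 0.21, adjusted *P* = 2.67e-13). ETR1 (MLOC_2842), an ethylene receptor, had 75.7 to 94.8 CPM in W2, 28.3 to 35.8 CPM in mite samples and 27.1 to 32.2 CPM in C (log2 fold change -1.44, SE 0.070, adjusted *P* = 7.32e-16). For both, the mite samples overlapped with the controls. ARF2 (MLOC_18401), an auxin response factor, was higher there, at 76.2 to 100.7 CPM against 36.1 to 47.4 CPM in W2 and 82.2 to 107.5 CPM in C (log2 fold change 1.05, SE 0.11, adjusted *P* = 3.86e-09). This call was lost without W2 replicate 4 (0.95) and with T2 alone.

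Heat shock and chaperone genes numbered 7, of which 5 were tested. Of these 3 (60%) were lower, against 17.1% of all genes, 0 were higher, against 9.82%, and the median was -1.0001, the value of HOP2 below. The cytosolic small heat shock protein HSP17.6II (MLOC_32229) had 5.03, 4.43, 4.802 and 5.32 CPM in W2 and at most 0.197 CPM in mite samples and 0.139 CPM in C. The log2 fold change of mites over W2 was -5.61 (SE 0.48, adjusted *P* = 7.22e-11). MBF1C (MLOC_13045), a co-activator of the heat response, was also far higher in W2, at 1.94 to 3.56 CPM, than in mite samples, at no more than 0.106 CPM, or in C, at 0.0829 to 0.175 CPM (log2 fold change -5.92, SE 0.47, adjusted *P* = 1.36e-11). HOP2 (MLOC_10230), a co-chaperone that joins HSP70 to HSP90, sat on the fold change minimum at -1.0001 (SE 0.060, adjusted *P* = 4.73e-14), and its call was lost in 15 of 26 alternative settings, with values from -0.81 (upper-quartile factors) to -1.04 (T2 alone) over all 26. The 2 chloroplast chaperones were not called, with log2 fold changes of 0.32 for HSP90.5 (MLOC_3272) and 0.36 for CPN20 (MLOC_15907).

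Secretion and protein folding in the endoplasmic reticulum was the list with the largest share of calls, since 8 of its 9 genes were lower in mite-infested leaves, against 17.1% of all genes. In this list 0 were higher, against 9.82%, and 0 were higher at an unadjusted *P* under 0.05. The median log2 fold change was -1.42 and all 9 values were negative, from -1.71 to -0.85. Summed over the list, levels were 2240 to 3070 CPM in W2, 901 to 1178 CPM in mite samples and 846 to 985 CPM in C. Wounded leaves thus stood apart from both other kinds of leaf.

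The called members span the route of a secreted protein. In the lumen of the endoplasmic reticulum, SDF2 (MLOC_13440), a protein of the unfolded protein response, had 38.0, 48.0, 36.2 and 45.8 CPM in W2 and 11.02 to 17.1 CPM in mite samples (median 13.2), with 10.6 to 13.7 CPM in C (log2 fold change -1.63, SE 0.10, adjusted *P* = 1.58e-13). The chaperone calnexin (CNX1, MLOC_2075) and the disulfide isomerase PDIL2-1 (MLOC_15962) had log2 fold changes of -1.41 and -1.42. SEC24A (MLOC_17932) and SEC31B (MLOC_10432), which coat the vesicles leaving this compartment, had -1.33 and -1.38.

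Transport to and from the Golgi followed the same order of groups. RABD2A (MLOC_26110), a RAB GTPase of that step, had 127, 155, 131 and 157 CPM in W2, 39.0 to 50.4 CPM in mite samples (median 43.8) and 36.3 to 41.2 CPM in C (log2 fold change -1.71, SE 0.079, adjusted *P* = 2.54e-16). The coat protein gamma-COP (MLOC_19195) had 505, 483, 373 and 516 CPM in W2, 133 to 180 CPM in mite samples (median 164) and 136 to 157 CPM in C (log2 fold change -1.56, SE 0.067, adjusted *P* = 5.23e-17). Its partner beta-prime-COP (MLOC_11201) had -1.55. The member that was not called, ERD2B (MLOC_3045), a receptor that returns proteins to the endoplasmic reticulum, had a log2 fold change of -0.85 (SE 0.097, adjusted *P* = 1.64e-08).

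Of 9 cell wall genes, 6 were tested, 4 (66.7%) were lower, against 17.1% of all genes, and 0 higher, against 9.82%, with a median of -1.59. All 4 encode glycosyltransferases of wall polysaccharides. MUR3 (MLOC_15348), a galactosyltransferase of xyloglucan, had 4.87, 8.85, 9.50 and 7.26 CPM in W2, at most 0.641 CPM in mite samples (median 0.260) and at most 0.348 CPM in C, a log2 fold change of -4.73 (SE 0.39, adjusted *P* = 2.65e-11). QUA1 (MLOC_20690), GAUT13 (MLOC_15026) and GAUT10 (MLOC_11661), of the galacturonosyltransferase family, had log2 fold changes of -1.89, -1.68 and -1.51. For GAUT13 the W2 samples had 38.8 to 48.7 CPM, the mite samples 12.7 to 15.7 CPM and C 10.7 to 13.01 CPM. GAUT4 (MLOC_17998) at 0.17 and CYP98A3 (MLOC_16097), a hydroxylase of lignin precursors, at 0.46 were not called.

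**Figure D4:**
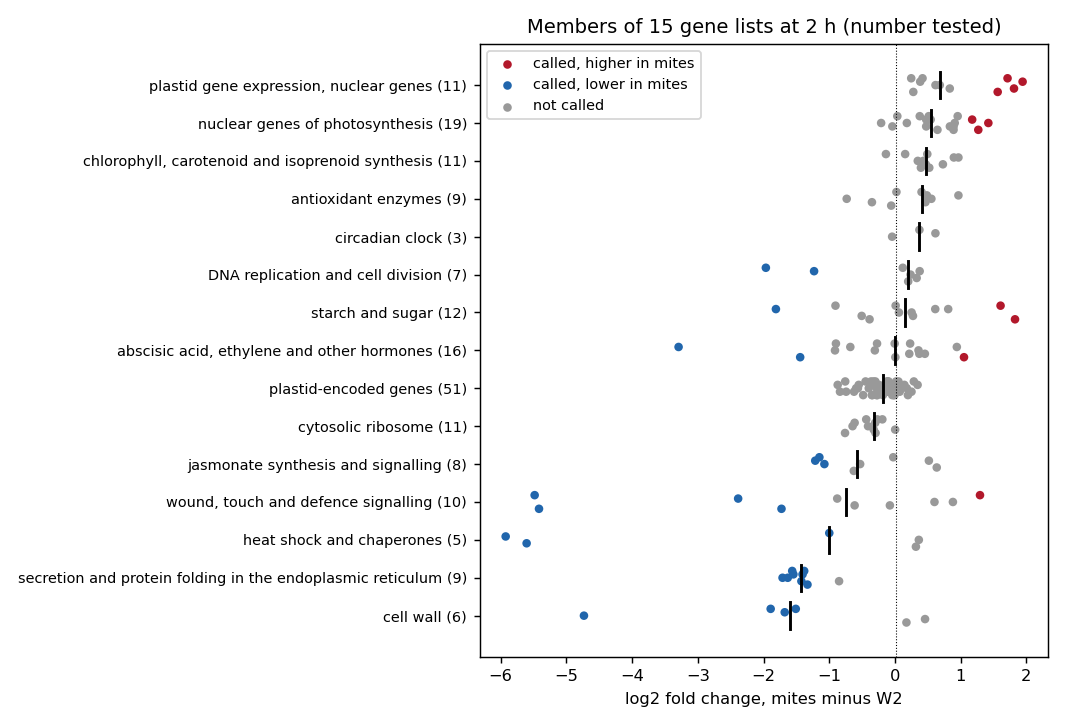
Log2 fold changes of mites over W2 for the tested members of 15 gene lists, 1 point per gene, coloured by call, with a black bar at the median of each list and a dotted line at the median of all genes. Cell wall and secretion genes have the lowest medians (-1.59 and -1.42) and nuclear genes for plastid gene expression the highest (0.68).

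Of 19 nuclear genes of photosynthesis, all tested, 3 (15.8%) were higher in mite-infested leaves and 0 were lower, where 9.82% and 17.1% of all genes were. The median log2 fold change was 0.54, and 17 of the 19 values were positive. With upper-quartile factors 8 were called higher, and without W2 replicate 3, or with T2 alone, there were 5. Summed over the list, levels were 12890 to 16330 CPM in mite samples, 6424 to 8161 CPM in W2 and 14060 to 16720 CPM in C. Some members are abundant transcripts of the leaf, and LHCB3 ranked 28 by mean CPM over the 12 samples. These sums and the share of the 10 top genes given above were both lower in W2. The part of that share in the difference was not tested. In whole leaf sections, fewer intact mesophyll cells and less transcript per cell cannot be told apart.

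LHCB3 (MLOC_17002), of the antenna of photosystem II, had 1781, 977, 1394 and 1296 CPM in W2, 3229 to 4137 CPM in mite samples (median 3763) and 3544 to 4576 CPM in C. The log2 fold change was 1.42 (SE 0.20, adjusted *P* = 5.23e-07). LHCB6 (MLOC_11961), a minor antenna protein, had 718, 590, 773 and 645 CPM in W2, 1283 to 1898 CPM in mite samples (median 1624) and 1372 to 2033 CPM in C (log2 fold change 1.17, SE 0.18, adjusted *P* = 2.45e-06). For both genes the mite-infested and control leaves overlapped, and all wounded leaves were lower. CURT1B (MLOC_18308), which curves thylakoid membranes, had a log2 fold change of 1.27 (SE 0.15, adjusted *P* = 3.14e-08). The abundant transketolase TKL1 (MLOC_20190) of the Calvin cycle missed the fold change minimum at 0.89, with 1862 to 2354 CPM in W2 and 3761 to 4411 CPM in mite samples. LHCA5 (MLOC_12843) at -0.21 and RPI3 (MLOC_17604) at -0.04 were the members with negative values.

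Nuclear genes for plastid gene expression numbered 11, all tested, with a median of 0.68. Higher were 4 (36.4%), against 9.82% of all genes, and 0 were lower, against 17.1%. The 4 calls were all of the plastid transcription machinery and the 7 proteins of the chloroplast ribosome were not called, at 0.25 to 0.83. PTAC2 (MLOC_15169), a part of the plastid transcription complex, had 27.2, 13.4, 19.4 and 18.9 CPM in W2, 54.1 to 81.5 CPM in mite samples (median 72.8) and 56.8 to 88.8 CPM in C (log2 fold change 1.81, SE 0.15, adjusted *P* = 4.19e-11). FLN2 (MLOC_22458) and FLN1 (MLOC_15972), of the same complex, had log2 fold changes of 1.71 and 1.56. SIG3 (MLOC_12452), a sigma factor that guides the plastid RNA polymerase, had 0.990 to 1.75 CPM in W2 and 3.07 to 5.98 CPM in mite samples (log2 fold change 1.94, SE 0.22, adjusted *P* = 1.14e-08).

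The transcripts of the plastid genome itself did not follow. Of 67 plastid-encoded genes 51 were tested, and edgeR called 0 in either direction, where 26.9% of all genes were called, with TMM and with upper-quartile factors. At an unadjusted *P* under 0.05, 5 had negative and 0 positive values. Their median log2 fold change was -0.18 with TMM factors and 0.01 with upper-quartile factors, so it has no firm sign. Libraries were made from poly(A) RNA, and plastid transcripts mostly lack long poly(A) tails, so their levels are poorly captured by these data.

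**Figure D5:**
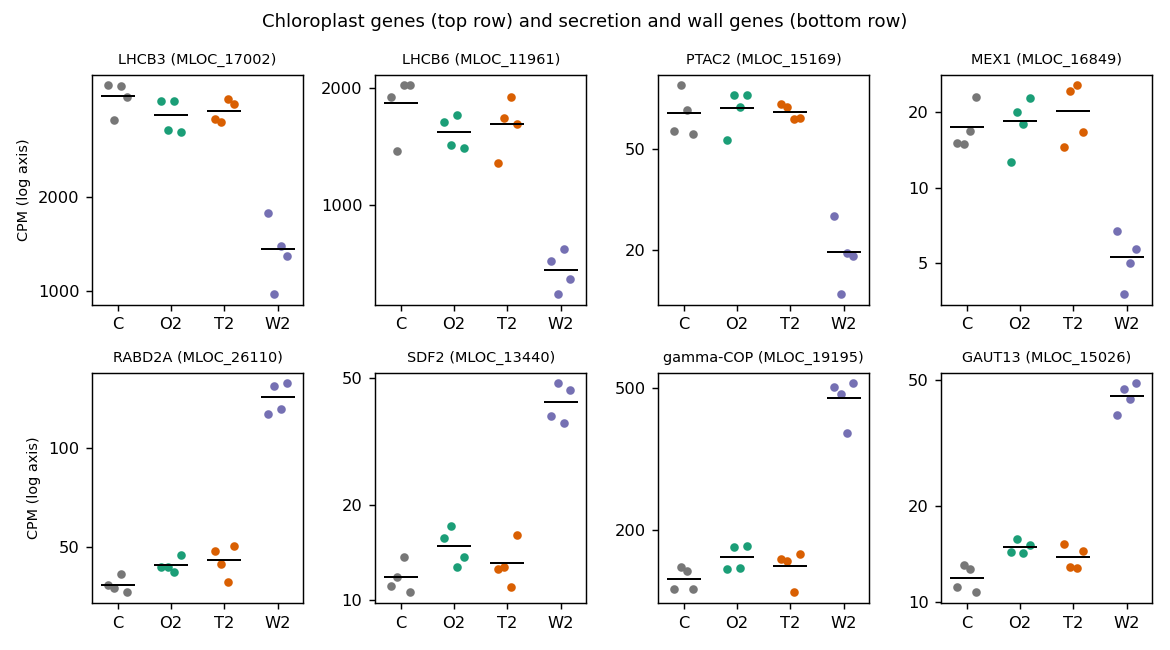
CPM (log axis) in each sample for 4 chloroplast genes (top row) and 4 genes of secretion and the cell wall (bottom row) in C, O2, T2 and W2, with points for samples and black bars for group means. In all 8 genes the mite samples overlap with the controls, and the 4 wounded samples lie below them in the top row and above them in the bottom row.

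The 11 genes of chlorophyll, carotenoid and isoprenoid synthesis were all tested and edgeR called 0 in either direction, where 26.9% of all genes were called. Their median was 0.47, with 8 positive and 0 negative values at an unadjusted *P* under 0.05. Upper-quartile factors gave 2 higher. The nearest to a call were TPS14 (MLOC_19896), paired with a linalool synthase, at 0.97 (SE 0.10, adjusted *P* = 2.93e-09) and FPS1 (MLOC_10729), which makes the precursor of sesquiterpenes, at 0.90 (SE 0.14, adjusted *P* = 2.07e-06). TPS14 had 48.2 to 55.8 CPM in W2, 89.1 to 127 CPM in mite samples and 95.3 to 120 CPM in C.

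Starch and sugar metabolism held calls in both directions. Of 13 genes 12 were tested, 2 (16.7%) were higher and 1 (8.33%) lower, beside 9.82% and 17.1% of all genes, with a median of 0.16. MEX1 (MLOC_16849), which exports maltose from the chloroplast, had 6.72, 3.78, 5.04 and 5.69 CPM in W2, 12.7 to 25.6 CPM in mite samples (median 18.9) and 14.96 to 22.97 CPM in C (log2 fold change 1.83, SE 0.20, adjusted *P* = 8.86e-09). SPS3F (MLOC_18160), a sucrose phosphate synthase, had 1.43 to 1.88 CPM in W2 and 2.28 to 7.50 CPM in mite samples (log2 fold change 1.61, SE 0.36, adjusted *P* = 0.000307). PGI1 (MLOC_1497), the plastid phosphoglucose isomerase on the route into starch, went the other way. It had 168, 228, 229 and 200 CPM in W2, 53.2 to 71.7 CPM in mite samples (median 62.1) and 43.1 to 51.7 CPM in C (log2 fold change -1.81, SE 0.099, adjusted *P* = 6.90e-15).

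All 11 genes of the cytosolic ribosome were tested and edgeR called 0 in either direction, where 26.9% of all genes were called. Their median was -0.32, with 10 negative values, of which 9 had an unadjusted *P* under 0.05. The 9 tested of 10 antioxidant genes also gave 0 calls in either direction in edgeR, against the same 26.9%. Their median was 0.40, with 5 positive and 2 negative values at an unadjusted *P* under 0.05. Among them GSH2 (MLOC_19025), glutathione synthetase, had 13.7 to 18.5 CPM in W2, 21.4 to 48.3 CPM in mite samples (median 33.2) and 9.39 to 13.01 CPM in C, the order in which mite-infested leaves stood above both other kinds of leaf. Its log2 fold change of mites over W2 was 0.97 (SE 0.20, adjusted *P* = 0.000126), just short of the fold change minimum.

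Of 9 genes of DNA replication and cell division 7 were tested, with a median of 0.20. Of these 0 were higher, against 9.82% of all genes, and 2 (28.6%) were lower, against 17.1%. The lower genes were MCM5 (MLOC_10314), of the replicative helicase, at -1.97 (SE 0.37, adjusted *P* = 3.28e-05) and MAP65-3 (MLOC_12156), of the division plate, at -1.23 (SE 0.33, adjusted *P* = 0.00178), both below 4 CPM in every sample of C, O2, T2 and W2. The 3 clock genes were tested and edgeR called 0 in either direction, where 26.9% of all genes were called. Their median was 0.37, with 2 positive values at an unadjusted *P* under 0.05. LHY (MLOC_14118), a morning factor of the clock, had 2987 to 3507 CPM in W2, 4205 to 6113 CPM in mite samples and 4684 to 5629 CPM in C, a log2 fold change of 0.62 (SE 0.12, adjusted *P* = 5.08e-05). All leaves were collected at the same time of day.

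The paired genes with the largest differences were also taken from all called genes with a mean of at least 5 CPM over the 12 samples and no overlap between the groups, which leaves out genes of low level such as MBF1C, HSP17.6II, TCH4 and SIG3. Among them the most strongly lower in mite-infested leaves after RNS1 was MLOC_11181, paired with the synaptotagmin gene AT5G04220, which had 42.8, 41.0, 40.1 and 39.0 CPM in W2, 0.794 to 1.49 CPM in mite samples and 0.939 to 1.65 CPM in C (log2 fold change -5.10, SE 0.22, adjusted *P* = 1.28e-16). MLOC_17928, paired with the transcription factor gene MYB112 (AT1G48000), had -4.94 (SE 0.31). MLOC_13941, paired with the galactosyltransferase family gene AT1G77810, had -4.94 (SE 0.20).

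MLOC_10787, paired with the calmodulin-like gene AT1G76640, was above the control level after both kinds of damage, with a large gap between them. It had 8.08, 24.9, 32.3 and 18.1 CPM in W2, 0.284 to 1.18 CPM in mite samples (median 0.769) and at most 0.0696 CPM in C. All mite samples were above all controls and below all wounded samples, and the log2 fold change of mites over W2 was -4.85 (SE 0.35, adjusted *P* = 4.74e-12).

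By the same conditions, the paired gene most strongly higher in mite-infested leaves was MLOC_11021, paired with a cytokinin oxidase gene (AT2G41510), whose product breaks cytokinins down. It had 9.65, 3.12, 4.70 and 7.48 CPM in W2, 23.1 to 53.6 CPM in mite samples (median 37.8) and 31.0 to 46.4 CPM in C (log2 fold change 2.57, SE 0.29, adjusted *P* = 2.67e-08). It was followed by MLOC_11717 (AT4G37510) at 2.19, MLOC_15936 (AT1G32520) at 2.13, MLOC_20418, paired with an F-box gene (AT2G32560), at 2.04, and MEX1. In all 5, the mite samples were above the wounded ones without overlap, and the log2 fold change of mites over C was between -0.65 and 0.08.

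Over all called genes, paired or not, that met the same conditions, the extremes were MLOC_44134 and MLOC_74793 on the side of wounding. MLOC_44134 had 21.2, 27.2, 20.9 and 27.6 CPM in W2, and 2 counts in all 8 mite libraries together against 2695 in W2. The ratio of W2 over mites was 1480 (exact 95% binomial counting interval 408 to 12200). MLOC_74793 had 14.1 to 31.8 CPM in W2, and 3 counts in the mite libraries against 2524, a ratio of 922 (315 to 4470). C held 0 counts of MLOC_74793 in 4 libraries. Such intervals cover counting error only.

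On the side of mites, the 2 largest differences under these conditions were of MLOC_36849 and MLOC_62746, and some genes of lower level had larger ones. MLOC_36849 had 0.0412, 0.868, 0.574 and 0.220 CPM in W2, 2.54 to 20.99 CPM in mite samples (median 5.11) and at most 0.870 CPM in C (log2 fold change 4.12, SE 0.71, adjusted *P* = 1.60e-05). It was among the few named genes that stood above both wounded and undamaged leaves. MLOC_62746 had 3.12 to 8.70 CPM in W2, 40.1 to 171 CPM in mite samples and 39.3 to 187 CPM in C (log2 fold change 3.82, SE 0.70, adjusted *P* = 3.49e-05), and so matched the usual order.

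Of the 3 terpene synthase genes named in the study's text, which make volatile terpenes, 2 were called higher in mite-infested leaves. MLOC_76989 had 0, 7, 7 and 7 counts in W2, 10 to 190 in mite samples and 0 in C (log2 fold change 3.90, SE 0.91, adjusted *P* = 0.000836), and MLOC_56812 had 1, 7, 14 and 8 counts in W2, 10 to 107 in mite samples and 0 in C (log2 fold change 2.77, SE 0.76, adjusted *P* = 0.00269). In CPM all mite samples lay above all wounded samples for both genes. Against a floor of 3 counts over the C libraries, the mite level was at least 127-fold higher for MLOC_76989 and at least 73.8-fold higher for MLOC_56812, and the W2 level at least 6.88-fold and 9.83-fold higher. O2 replicate 2 alone held 190 and 107 of the mite counts, and without it the mite bounds fell to 79.7-fold and 47.7-fold. The W2 bounds fell to 5.76-fold for MLOC_76989 without W2 replicate 2 and to 7.93-fold for MLOC_56812 without W2 replicate 3. These bounds rest on the floor in C and do not cover the spread among replicates. The MLOC_56812 call was lost without W2 replicate 1 (adjusted *P* = 0.0125), with T2 alone (0.0253) and with libraries thinned to 1 size (0.0107). MLOC_13618, with at most 8 counts in any mite sample, was not called (log2 fold change 2.13, SE 1.23, adjusted *P* = 0.124). The study named this gene for its later time point and not for 2 h.

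Library size moved with the groups, and its bearing was measured. With the counts of all 12 libraries thinned to the smallest total, 4436 genes were called, 1629 higher and 2807 lower in mite-infested leaves, of which 4228 were among the 4560 called at full depth.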

How the data were processed

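The authors prepared stranded poly(A) libraries, mapped read pairs onto the barley assembly ASM3268v1 (Ensembl) using STAR (2.5.1b per the submitters' processing notes) and counted uniquely aligned reads per gene, by strand, with HTSeq 0.6.0. The deposited values are these raw counts, for 25592 genes. Reads shared by near-identical genes are therefore missing.

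Here, edgeR 4.0.16 in R 4.3.3 was applied to the counts (filterByExpr with a minimum count of 10, TMM factors, robust quasi-likelihood fit) over all 28 samples with 1 mean per group, in the contrast of the mean of O2 and T2 minus W2. SE is the log2 fold change divided by the root of F. CPM uses the library total. Totals and shares were compared by exact two-sided permutation over all assignments of 8 and 4 samples. Replicates differed by 8.59 to 79.3 chi-square per gene (18 pairs), so none was a repeated library. On simulated data for this contrast, 200 of 16948 genes were changed. There edgeR called 99% of 100 genes changed by 2 and 100% of 100 changed by 3 on the log2 scale, with 0 false calls. Recovery of smaller differences, or of differences in as many genes as were called here, was not tested.

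Gene lists came from 217 *A. thaliana* loci in a shortened copy of the study's pairing table. Genes named were all jasmonate genes, up to 3 called genes per other list with a mean of at least 1 CPM, the 5 most higher and 5 most lower non-overlapping paired calls and the 2 and 2 most extreme of all genes with at least 5 CPM, and the 3 terpene synthases. Other list members, such as TCH4, MBF1C, PMR4 and GSH2, were named after their values were seen. The comparison, its members and the lists were chosen with earlier results of these data known. Positions are not given, since 0 identifiers matched the RefSeq table. Alternatives tried were DESeq2 1.42.0, other scalings, filters, thresholds, sample sets, thinned counts, a replicate block and leaving out samples.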

Additional observations from a re-analysis of the deposited data

Results flagged for a closer look

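In 10 of 195 groups of 4 samples that were examined, 1 sample lay apart from the other 3 by Dixon's criterion, and chance gives about 1 in 20. O2 replicate 1 was low for SIG3 (MLOC_12452), at 3.07 CPM against 5.26 to 5.65 CPM, and for MLOC_11717, at 24.1 CPM against 31.5 to 31.8 CPM. W2 replicate 3 was high for SIG3, at 1.75 CPM against 0.990 to 1.11 CPM. T2 replicate 4 was low for MLOC_20418, at 155 CPM against 171 to 174 CPM, and high for MLOC_36849, at 13.1 CPM against 2.54 to 3.76 CPM. O2 replicate 2 was high for the terpene synthase MLOC_56812, at 7.04 CPM against 0.681 to 1.67 CPM. The other 4 were single libraries that held the few counts of the 2 genes nearly absent after mite feeding, MLOC_44134 (O2 replicate 4 at 0.0576 CPM and T2 replicate 3 at 0.0574 CPM) and MLOC_74793 (O2 replicate 2 at 0.132 CPM and T2 replicate 4 at 0.0801 CPM), with 0 in the other samples of those groups.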

How the results depend on the processing

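The count of 4560 genes ranged from 4272 (without W2 replicate 2) to 4846 (without W2 replicate 1) when each sample was left out in turn, with 8.7 to 10.4% of tested genes higher and 16.5 to 18.1% lower in mites. It was 4607 with DESeq2, and 4802 without both O2 replicate 3 and W2 replicate 1, an alternative chosen after seeing the data. Upper-quartile factors gave 14.8% higher. Without a fold change minimum 10490 genes were called (29.4% higher and 32.5% lower). A test against that minimum (glmTreat) called 2387 (2.92% higher and 11.2% lower), which is stricter by construction. Between O2 and T2, DESeq2 called 1 gene and edgeR 0, with or without the replicate block.

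Replicate numbers were not treated as pairs. Of 12 same-numbered pairs, 3 had a correlation of deviations over 0.1 (range -0.0038 to 0.285) and 4 matched their own number best. The study placed its plants in randomized blocks, and whether replicate numbers follow these blocks was not tested. With the replicate block 4566 genes were called, 1671 higher and 2895 lower, and HOP2 (MLOC_10230) was the only named gene that lost its call (-0.9993).

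Of 41 named genes that were called, 30 kept the call in all alternatives, 0 changed sign and 11 lost it at least once, mostly under glmTreat, JAZ1, NINJA and JAM2 among them. AIM1 (MLOC_2513), not called, had a positive sign with upper-quartile factors (0.16), library size alone (0.011), O2 alone (0.0219), thinned counts (0.0038) and without W2 replicate 2 (0.0027), W2 replicate 4 (0.0013), T2 replicate 2 (0.0068) or T2 replicate 3 (0.0224), with -0.1104 to 0.0224 over all samples left out. The difference in plastid share ranged from -0.169 to 0.038 percentage points over samples left out and turned positive without W2 replicate 1. Genes with few counts, such as MLOC_13618, are limited by depth.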
